A study of Mus musculus with 3 samples.

Results

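The interferon regulatory factors are transcription factors that read and write interferon signals. The 8 mouse genes Irf1, Irf2, Irf3, Irf4, Irf5, Irf7, Irf8 and Irf9 were followed in LLC/luc cells, a luciferase-carrying Lewis lung carcinoma line of C57BL/6 origin, through every probe that the platform annotation pairs with one of these symbols. That gave 15 of the 45281 probes on the array, with 5 probes for Irf1, 3 for Irf3, 2 for Irf9 and 1 for each of the other 5 genes. Total RNA of 3 cell lines was hybridised to Illumina mouse bead arrays in 1 colour, 1 array per line. The LLC/luc parental cells are the line before any selection in mice. The LLC/luc BM 1st cells were cultured from a bone lesion after parental cells were injected into the left ventricle, and the LLC/luc BM 2nd cells from a bone lesion of a mouse that had received BM 1st cells. Each selected line therefore traces back to the marrow of metastasis-bearing animals, was grown without a purification step that the sources used here describe, and stands for 1 selection. GEO's cell type field calls all 3 lines osteotropic, the parental line included.

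All members share a DNA-binding domain with a repeat of tryptophans that grips the sequence GAAA, and most bind paired copies of it in the interferon-stimulated response element (ISRE). Irf1 is made on demand: interferon-gamma switches on its promoter at a gamma-activated site (GAS), and inflammatory cytokines do so through NF-kB. Irf2 binds the same elements and mostly opposes Irf1. Irf3 and Irf7 wait in the cytoplasm until viral sensors have them phosphorylated and then induce interferon genes, and Irf9 is part of the complex ISGF3 that answers type I interferon. Irf4 and Irf8 are best known from lymphoid and myeloid cells, and Irf5 from myeloid cells and B cells.

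The promoters are shown because Irf1 was the member that differed between the lines, Irf2 is its closest relative, and Irf8 was the other member with a GAS match. Each line gives the 250 bases before the first annotated start in the RefSeq promoter table (build GRCm38.p6), with matches in capitals. Irf1 lies on the plus strand at chr11:53769764-53770013, Irf2 on the plus strand at chr8:46739495-46739744 and Irf8 on the plus strand at chr8:120736108-120736357.
Irf1: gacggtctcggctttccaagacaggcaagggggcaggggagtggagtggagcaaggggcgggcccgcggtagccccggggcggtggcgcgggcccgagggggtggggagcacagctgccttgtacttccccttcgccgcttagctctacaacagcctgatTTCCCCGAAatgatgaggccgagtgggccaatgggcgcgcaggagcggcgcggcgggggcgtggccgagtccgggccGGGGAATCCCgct
Irf2: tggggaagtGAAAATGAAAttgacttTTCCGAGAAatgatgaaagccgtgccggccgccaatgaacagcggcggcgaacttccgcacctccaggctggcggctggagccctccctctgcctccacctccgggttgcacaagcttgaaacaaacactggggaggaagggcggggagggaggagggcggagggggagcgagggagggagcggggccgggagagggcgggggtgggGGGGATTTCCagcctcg
Irf8: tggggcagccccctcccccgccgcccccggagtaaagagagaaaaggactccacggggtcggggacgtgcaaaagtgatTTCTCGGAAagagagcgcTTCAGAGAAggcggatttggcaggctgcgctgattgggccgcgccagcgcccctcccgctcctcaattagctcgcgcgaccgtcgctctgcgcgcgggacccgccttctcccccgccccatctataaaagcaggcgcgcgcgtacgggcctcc
In Irf1 the first run of capitals is a GAS match (TTCNNNGAA), TTCCCCGAA, whose last base lies 82 bases before the start, and the second is a match to the general NF-kB consensus, GGGGAATCCC, 4 bases before it. In Irf2 the runs are a match to the ISRE core (GAAA, any pair of bases, GAAA), then a GAS match, then an NF-kB consensus match. In Irf8 both runs are GAS matches. Both strands were searched. The table holds 11 windows for the 8 members, and a GAS match was present in 3 of them, against 7.02% of 32851 mouse promoter windows of the same length. The ISRE core was present in 1 of the 11, against 2.98%. A stricter NF-kB motif (GGGA, any pair of bases, TTCC) was in none, against 1.21%. The NF-kB consensus, which includes that motif and was searched after the promoters had been seen, was in 2 of the 11, against 7.25%. A match is a run of letters and not a measured binding site.

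Irf1 was higher in both bone-selected lines than in parental cells on each of its 5 probes. Its brightest probe (ILMN_2834777) read 1005 on the parental, 7449 on the BM 1st and 9813 on the BM 2nd array. The second (ILMN_2599782) read 366, 3120 and 4734 in the same order. Both stood several-fold above parental cells already in BM 1st cells and were highest in BM 2nd cells. The probes ILMN_2649067 and ILMN_2649068 nearly coincided, with 146 on the parental, 582 on the BM 1st and 968 on the BM 2nd array for the one and 146, 597 and 913 for the other. The dimmest (ILMN_2624100) read 86.0 on the parental, 126 on the BM 1st and 165 on the BM 2nd array. All 5 probes thus ordered the lines the same way, and all are annotated to the same RefSeq transcript, so they repeat 1 RNA preparation per line and are not replicates.

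Background was set on each array from 1506 probes for olfactory and vomeronasal receptors, which carcinoma cells are not known for, as their 95th percentile, which lay at 109 on the parental, 110 on the BM 1st and 107 on the BM 2nd array. Probes above that level in at least 1 of 2 lines were compared, and a log2 intensity ratio past 1 or -1, the threshold of the study, counted as higher or lower. There is no replicate of any line, so no p-value is given and no difference has a replicate check. Among the receptor probes the BM 2nd/parental log2 ratio ranged from -0.33 to 0.34, and none passed the threshold in any of the 3 comparisons. Between probes of 1 gene, over 3154 genes with 2 or more probes above background on all arrays, the median SD of that ratio was 0.14.

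**Figure D1:**
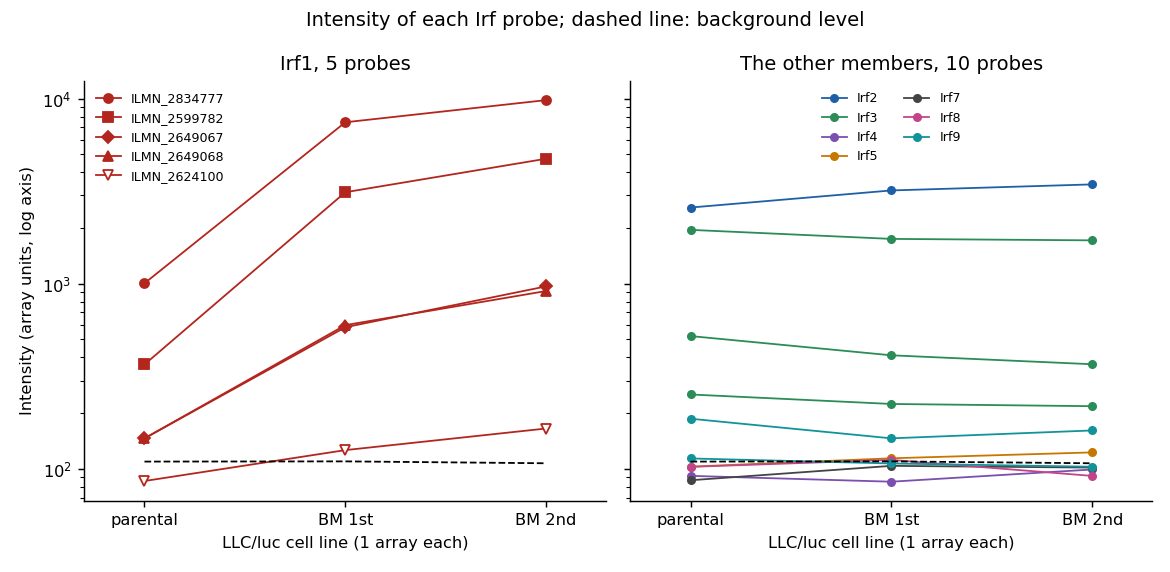
Intensity (vertical log axis, array units) of the 5 Irf1 probes (left) and the 10 probes of the other members (right) in the 3 LLC/luc lines, 1 array per line. The dashed line joins the background levels. Irf1's brightest probe reads 1005, 7449 and 9813 and the dimmest (open symbols) starts below background, while the other members are nearly flat.

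The Irf1 difference exceeded both of these spreads, but neither measures how far separate cultures of 1 line differ. The receptor probes also lie near background, where ratios are smaller by construction. The BM 2nd/parental log2 ratios of its 5 probes, brightest first, were 3.29, 3.69, 2.73, 2.64 and 0.94, which are intensity ratios of 9.76, 12.9, 6.63, 6.25 and 1.92. Past the threshold were therefore 4 of the 5, and the fifth, whose parental signal did not exceed background, was higher in BM 2nd cells by at least 1.51-fold. Of all 19771 probes compared between BM 2nd and parental cells 1.36% were higher and 1.26% lower, and of the 15 member probes 12 were compared, 4 were higher, all of Irf1, and none was lower. In order of the ratio the 4 probes ranked 13, 18, 31 and 34 from the top. Among 395 genes with 4 or more probes compared, Irf1 was the only one with 4 or more probes higher, and 4 genes on the whole array had 3 or more.

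In BM 1st cells the same 4 probes were past the threshold against parental cells. Their log2 ratios were 2.89, 3.09, 1.99 and 2.03, and that of the dimmest probe was 0.55. Of 19241 probes compared 1.61% were higher and 1.34% lower, and 13 member probes were compared. Both comparisons use the parental array, so their values are not independent. Most of the Irf1 difference was present after the first selection: on the log2 scale BM 1st cells had covered 87.9%, 83.7%, 73.1% and 76.8% of the distance between parental and BM 2nd cells on the 4 probes. On the linear scale these shares were smaller, at 73.2%, 63.1%, 53.1% and 58.8%. The dimmest probe, under background in parental cells, had 58.9% on the log2 and 50.9% on the linear scale. Between BM 2nd and BM 1st cells the log2 ratio was 0.40, 0.60, 0.73, 0.61 and 0.39, above 0 on all 5 probes and past the threshold on none. Of 19809 probes in that comparison 2.36% were higher and 1.43% lower, and none of the 12 member probes compared was either.

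The size of the Irf1 difference differed between the probes. Background stays in the deposited intensities, which makes the ratios of dim probes smaller by construction. With each array's receptor median subtracted, the BM 2nd/parental log2 ratios of the 4 brighter probes lay between 3.41 and 4.09 and their SD was 0.31, in place of 2.64 to 3.69 and an SD of 0.49. The fifth probe then had a ratio of 2.87, with its parental value set to the floor of 10. The pair ILMN_2649067 and ILMN_2649068 moved from 2.73 and 2.64 to 4.04 and 3.94.

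**Figure D2:**
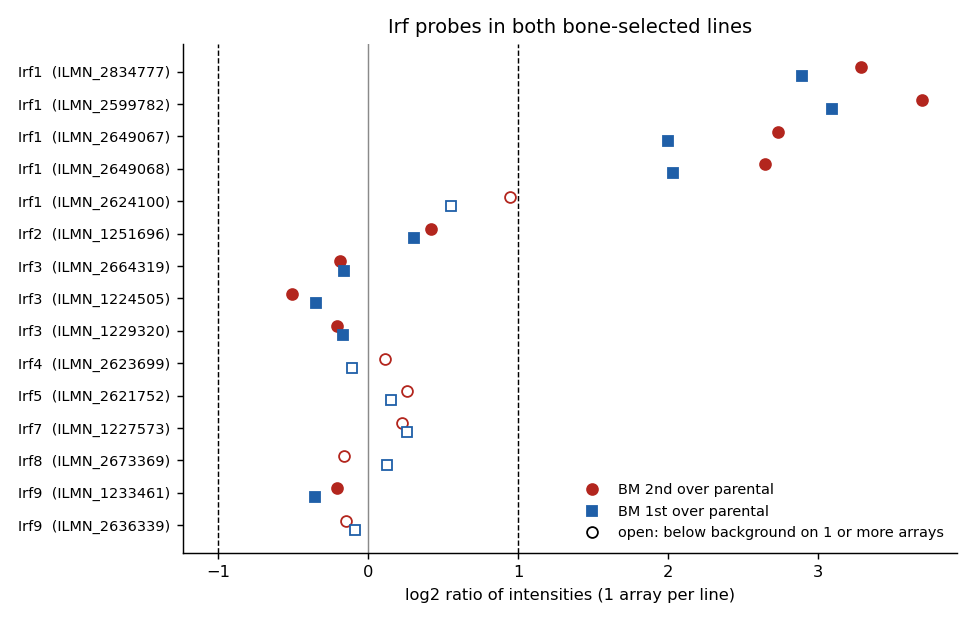
Log2 ratio of intensities (horizontal axis) of BM 2nd over parental cells (red circles) and BM 1st over parental cells (blue squares) for the 15 member probes, 1 array per line. Open symbols mark probes not above background on 1 or more arrays and dashed lines mark 1 and -1; 4 Irf1 probes lie past 1 in both comparisons and no other member probe does.

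Irf2, the antagonist of Irf1, was bright in all 3 lines and differed little. Its single probe read 2579 on the parental, 3191 on the BM 1st and 3440 on the BM 2nd array, a log2 BM 2nd/parental ratio of 0.42 and a BM 1st/parental ratio of 0.31. It ordered the lines as Irf1 did, at 1.33-fold in BM 2nd over parental cells. Other genes named after Irf2 had probes too. Irf2bpl had a BM 2nd/parental log2 ratio of 1.03 on its brightest probe, which read 961 on the parental, 1504 on the BM 1st and 1966 on the BM 2nd array, and one of 0.06 on its other compared probe. Irf2bp1 had a ratio of 0.32 and Irf2bp2 one of 0.20.

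Irf3, which relays signals of viral RNA and DNA sensors, was somewhat dimmer in both selected lines on all 3 of its probes. The brightest read 1954 on the parental, 1746 on the BM 1st and 1715 on the BM 2nd array. The others read 522, 411 and 367, and 252, 224 and 218. The order of the lines was the same on each probe and the reverse of that of Irf1. The log2 BM 2nd/parental ratios were -0.19, -0.51 and -0.21, none of them past the threshold. All but 1 lay within the range of the receptor probes, which are dimmer than those of Irf3. In BM 2nd over BM 1st cells the 3 ratios lay between -0.16 and -0.03.

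Irf9, the DNA-binding subunit of ISGF3, was also slightly dimmer. Its brighter probe read 187 on the parental, 146 on the BM 1st and 161 on the BM 2nd array, with a log2 BM 1st/parental ratio of -0.35 and a BM 2nd/parental ratio of -0.21. The other probe read 114 in parental cells and was under background in both selected lines, at 107 on the BM 1st and 103 on the BM 2nd array.

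The members known from immune cells lay at or near background. Irf5 read 103 on the parental, 114 on the BM 1st and 123 on the BM 2nd array, and was above background in both selected lines. Its BM 2nd intensity was 1.12-fold the parental background level. Its log2 BM 2nd/parental ratio of 0.26 lay within the range of the receptor probes. Irf8 was above background in BM 1st cells only, at 112 against a background of 110, with 103 in parental and 91.6 in BM 2nd cells. Irf4, at 91.7 on the parental, 85.2 on the BM 1st and 99.2 on the BM 2nd array, was not above background on any array. Irf7, which interferon itself strongly induces, was not either, at 86.8, 104 and 102 in that order. Bead signals so close to background respond little to RNA, so for Irf4 and Irf7 no difference was detectable, which does not make their levels equal.

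The partners of Irf4 and Irf8 in blood cells were likewise dim. Of 9 such genes with a probe 6 were compared between BM 2nd and parental cells, none was higher or lower, and the median log2 ratio was -0.04, beside 0.01 for all genes compared. Batf, a leucine zipper factor that binds DNA together with Irf4 or Irf8, was under background in parental cells and lay at least 1.53-fold above it in BM 2nd cells, and Batf3, its relative in dendritic cells, had a ratio of -0.56. Spi1, which encodes the myeloid factor PU.1, was above background in BM 1st cells alone, at 121, as Irf8 was.

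Because the sub-lines were cultured from bone marrow, markers of leukocytes were read alongside. Of 15 with a probe, 2 exceeded background on the parental array, 8 on the BM 1st array and 7 on the BM 2nd array. Their summed intensity was 1642, 3352 and 2109 in that order. Past the threshold in BM 1st over parental cells were Lyz2, Laptm5 and Fcer1g, none of them above background in parental cells, and set against that background they were at least 9.84-, 3.36- and 2.33-fold higher. In BM 2nd over parental cells Lyz2 and Laptm5 were past it too, at least 3.33- and 1.68-fold higher, Lyz2 on 1 of its 2 compared probes. In BM 2nd over BM 1st cells 9 markers were compared and none was higher. Lyz2 and Laptm5 were lower there, at log2 ratios of -1.56 and -1.0005. Itgb2, an integrin chain of leukocytes, was above background in both selected lines, at 115 on the BM 1st and 109 on the BM 2nd array, and the macrophage gene Adgre1 in BM 1st cells alone, at 131. Tyrobp and Itgam were not above background on any array, and Ptprc, the gene of the pan-leukocyte antigen CD45, read 111 on the BM 1st and 104 on the BM 2nd array. The summed intensity of 9 stroma and osteoblast markers was 1112 on the parental, 1732 on the BM 1st and 2319 on the BM 2nd array. Of 7 compared between BM 2nd and parental cells only Pdgfra and Col1a1 were higher, and the median log2 ratio was 0.07. Pdgfra passed on 1 of its 2 compared probes, and Alpl and Col1a2 had ratios of -0.10 and -0.08. In BM 2nd over BM 1st cells 1 of 6 compared was higher, Col1a1, at 1.78. Of 4 endothelial markers 2 were above background in parental cells and 1 in each selected line. Of the epithelial markers Krt8 and Krt18 were bright in all 3 lines, and Epcam was not above background in any. Krt8 was past the threshold in BM 2nd over BM 1st cells, at 1.33, and Krt18 had a ratio of -0.84 there. The summed leukocyte intensity includes the background of each probe, and on the BM 1st array Lyz2 alone gave 1078 of the 3352. The part of other cells in the Irf1 difference was not tested. Since RNA was taken from whole cultures, more cells with Irf1 and more Irf1 RNA per cell cannot be told apart.

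Of the genes in lists around these factors 90 were compared between BM 2nd and parental cells, and 8 were higher, 6 of them in the NF-kB list. Of all 10580 genes compared between BM 2nd and parental cells, each read from its brightest probe, 1.83% were higher and 1.53% lower, and in BM 1st cells 2.04% of 10380 were higher and 1.79% lower. Between BM 2nd and BM 1st cells 3.01% of 10564 were higher and 1.78% lower. Of 17 interferon genes with a probe, 4 exceeded background in at least 1 of the parental and BM 2nd arrays, and none was higher or lower. Ifnb1 and Ifng, which encode the interferons beta and gamma, were not above background on any array. The highest ratio was that of Ifna1, 0.03, and the lowest that of Ifnab, -0.44.

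Of 6 receptor genes for interferons 5 were compared, none passed the threshold, and the median log2 ratio was 0.42 in BM 2nd over parental and 0.00 in BM 1st over parental cells. Ifngr2 and Ifngr1, the chains of the interferon-gamma receptor, had BM 2nd/parental ratios of 0.57 and 0.42. Of 10 JAK-STAT genes compared none passed either, with a median of 0.32. Ptpn6, a phosphatase that restrains cytokine receptors, read 228 on the parental, 160 on the BM 1st and 389 on the BM 2nd array and was past the threshold in BM 2nd over BM 1st cells at 1.28. Socs3, a feedback inhibitor of Stat3 signalling, had a BM 2nd/parental ratio of 0.68, and the kinase gene Jak2 one of -0.44.

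Among sensors and kinases that act on Irf3 and Irf7, 12 were compared between BM 2nd and parental cells and none was past the threshold (median 0.07). In BM 1st cells 1 of 13 was lower, Sting1, the adaptor of the DNA-sensing pathway, which read 390 on the parental, 163 on the BM 1st and 284 on the BM 2nd array. The lipopolysaccharide receptor gene Tlr4 had a BM 2nd/parental ratio of 0.46, and Traf6, an adaptor ligase, one of -0.46.

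Of 21 known targets of Irf1 with a probe 16 were compared between BM 2nd and parental cells, and 1 was higher and none lower, with a median of 0.21. That gene was Casp1, which encodes the inflammatory caspase that matures interleukin-1 beta. It read 165 on the parental, 501 on the BM 1st and 1256 on the BM 2nd array, a log2 BM 1st/parental ratio of 1.60 and a BM 2nd/parental ratio of 2.93, and it was past the threshold in BM 2nd over BM 1st cells as well, at 1.33. Il15, a cytokine for natural killer cells, had a BM 2nd/parental ratio of 0.65, the checkpoint ligand gene Cd274 one of -0.68 and the cell cycle inhibitor gene Cdkn1a one of -0.68. In BM 1st cells 1 of 15 targets compared was higher, again Casp1, and the median was -0.04.

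Of 22 ISGF3 targets with a probe, 11 were compared between BM 2nd and parental cells and none was higher or lower, with a median log2 ratio of 0.19. In BM 1st cells none of 9 was, with a median of 0.08. Ifit2, an antiviral RNA-binding protein, had the highest BM 2nd/parental ratio, 0.54, and Bst2, which tethers budding viruses, the lowest, -0.49. The exception lay in Ifitm1, which limits virus entry: its brightest probe had a ratio of 0.27, but the other 2 probes above background had 2.18 and 1.33, so that reading of the gene turned on the probe.

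**Figure D3:**
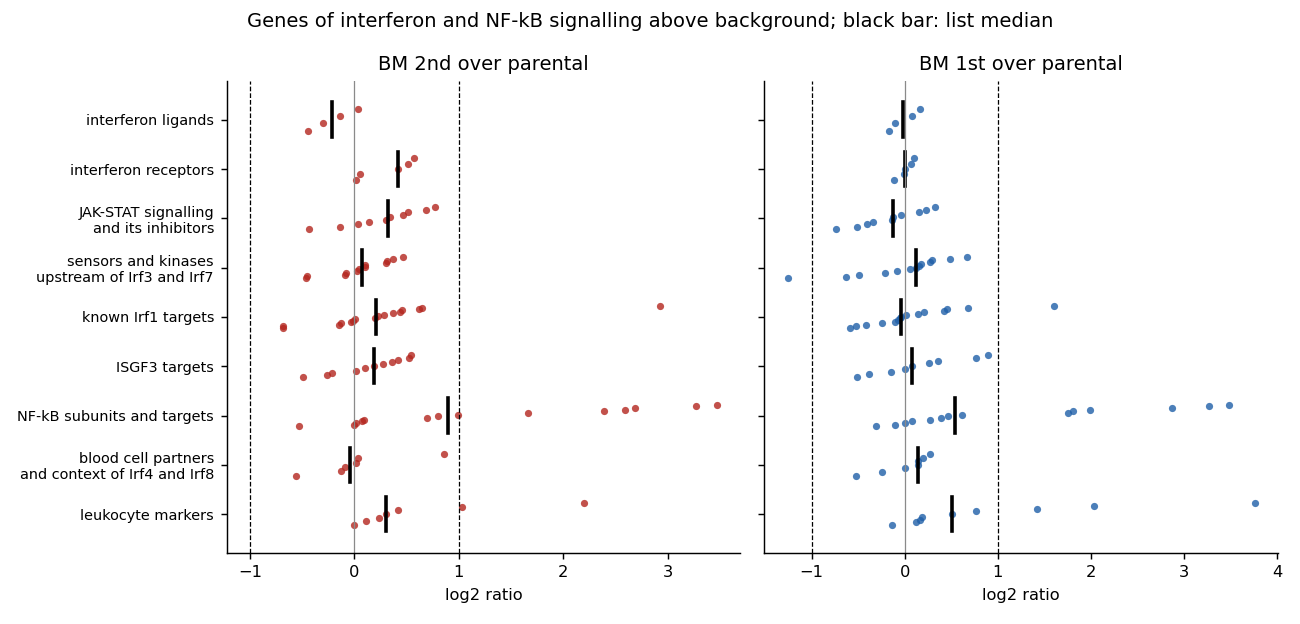
Log2 ratio (horizontal axes) of BM 2nd over parental (left, red) and BM 1st over parental cells (right, blue) for genes of 9 lists above background in at least 1 of the 2 lines, 1 point per gene, 1 array per line. Black bars are list medians and dashed lines mark 1 and -1; the NF-kB list has its median at 0.89 on the left and 0.54 on the right, and the interferon ligand, receptor and ISGF3 target lists have no point past 1.

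Of the 8 list genes higher in BM 2nd than in parental cells, 6 were in the NF-kB list. Of 14 NF-kB subunits and targets compared, 6 were higher and none lower in BM 2nd over parental cells, with a median log2 ratio of 0.89, and 6 were higher and none lower in BM 1st over parental cells, with a median of 0.54. The medians depended on the treatment of background: with background subtracted they were 2.14 and 1.59, and over genes above background on both arrays 0.99 and 1.11. The 6 included the chemokine genes Cxcl1 and Ccl2 at BM 2nd/parental ratios of 3.47 and 2.39, the feedback inhibitor genes Tnfaip3 and Nfkbia at 3.27 and 2.59, Nfkbiz, a nuclear coregulator, at 2.69 and Ier3, an early response gene, at 1.66. The subunit genes were not among them: Nfkb2 had a ratio of -0.53 and Relb one of 0.00. Nor were all targets: Bcl3 had a ratio of 0.99, Traf1 one of 0.70 and Icam1 one of 0.09. Birc3 was not above background on any array. No gene of the list passed the threshold between BM 2nd and BM 1st cells. Several of its genes were known from earlier results on these arrays when the list was made. Its counts are therefore no independent support for a link between NF-kB and Irf1, which was not tested.

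The genes most like Irf1 were sought by the distance between their pair of log2 ratios, BM 1st over parental and BM 2nd over parental, and that of Irf1's brightest probe, over 8648 genes above background on all 3 arrays. The nearest was Xdh, which encodes xanthine dehydrogenase, at a distance of 0.42, and Cxcl1 followed at 0.42, the matrix proteoglycan gene Bgn at 0.52, Tnfaip3 at 0.60 and Nfkbia at 0.69. Xdh read 270 on the parental, 2114 on the BM 1st and 1980 on the BM 2nd array. With 3 arrays this likeness rests on 2 ratios that share the parental array.

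**Figure D4:**
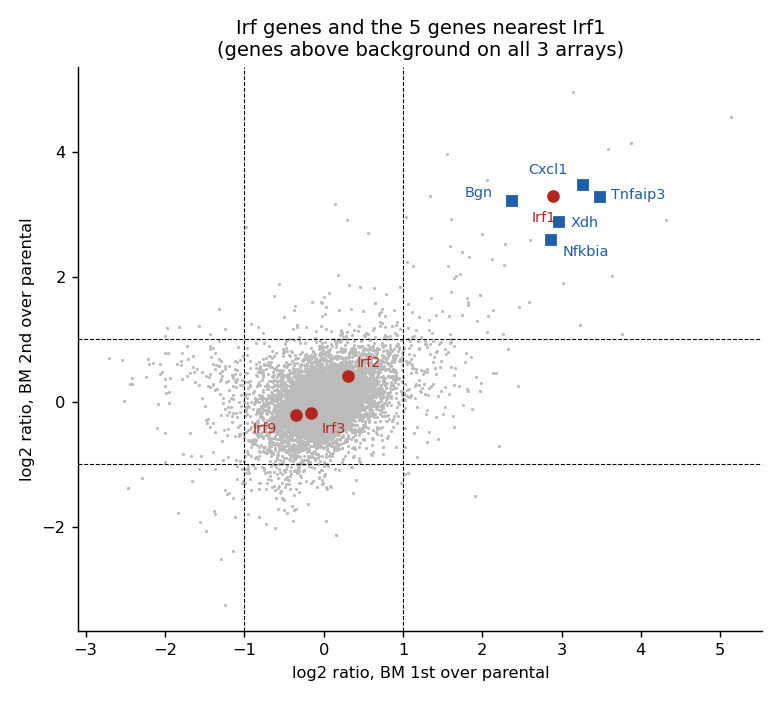
Log2 ratio of BM 1st over parental (horizontal axis) and of BM 2nd over parental cells (vertical axis) for 8648 genes above background on all 3 arrays, each from its brightest probe. Irf1 (red, at 2.89 and 3.29) lies in the upper right with its 5 nearest genes (blue squares), and Irf2, Irf3 and Irf9 lie within the grey mass; both axes share the parental array.

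The promoters of these neighbours are shown by their NF-kB matches, for comparison with GGGGAATCCC in Irf1. The RefSeq promoter table holds windows for 4 of the 5 genes, 5 windows in all, and none for Xdh. A consensus match was found in 3 of the 5 windows, each of another gene, against 7.25% of all promoter windows. These 3 genes were already in the NF-kB list, and the consensus was searched after the promoters had been seen. The count is therefore no test of a regulation shared with Irf1, which was not tested. Each is printed on the strand that matches, where plus and minus refer to the direction of the gene and not to the chromosome.
Cxcl1, chromosome 5, plus strand: GGGAATTTCC
Nfkbia, chromosome 12, minus strand: GGGAATTTCC
Tnfaip3, chromosome 10, minus strand: GGGGATTTCC
The matches lay 62, 20 and 3 bases before the start in Cxcl1, Nfkbia and Tnfaip3. Bgn had none, and no window of these 4 genes held a GAS match or an ISRE core match. Cxcl1 held the same site read on the other strand, 1 base over, and Tnfaip3 a second match, GGGACACCCC.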

How the data were processed

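RNA of 3 LLC/luc lines (parental, BM 1st, BM 2nd), 1 sample each, was read on Illumina mouse bead arrays. The deposited values are linear intensities, made by the authors with GenomeStudio 2011.1 according to the submitters' processing notes. Its settings are not stated in any source used here, but the values show quantile normalization, since ranked intensities deviate by no more than 0.274 between arrays, and no background subtraction, since the lowest value is 60.2. Probe symbols came from the platform annotation, updated by gene ID through the RefSeq table of GRCm38.p6: 34885 probes have 1 gene, 18 several and 10378 none. Log2 ratios were taken in pandas 2.3.3 and numpy 2.4.6 under Python 3.11.15, with figures drawn in matplotlib 3.10.9. Members were read probe by probe, and other genes from their probe with the highest mean log2 intensity. Counting past the threshold was checked on simulated arrays, with changes planted in bright probes only, so the check does not cover dim probes.

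The members and lists were chosen with earlier results of these data known. From each list the text names the 2 highest and 2 lowest BM 2nd/parental ratios, or some of them, and genes past the threshold. Named outside that rule, after their values were seen, are Ifitm1, Ifnb1, Ifng, Ifngr1, Bcl3, Traf1, Icam1, Birc3, Spi1, Ptprc, Adgre1, Tyrobp, Itgam and Epcam. Alternatives varied the background level and filter, the scaling, the probe and the threshold. No test across replicates was possible, since each line has 1 array.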

Additional observations from a re-analysis of the deposited data

How the results depend on the processing

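The Irf1 result kept its direction under all alternatives run. Averaged over the 5 Irf1 probes, each above background on at least 1 array, its log2 ratio was 2.66 in BM 2nd over parental cells. It was 2.11 in BM 1st over parental and 0.55 in BM 2nd over BM 1st cells. Over the 4 probes above background on all arrays these means were 3.09, 2.50 and 0.59. A centring of each array on its own probes above background, chosen after the data were seen, shifted all BM 2nd/parental ratios by 0.14. On the brightest Irf1 probe it gave 3.43 for BM 2nd over parental and 0.56 for BM 2nd over BM 1st cells. Between BM 2nd and BM 1st cells 3 member probes, all of Irf1, passed a threshold of 0.6, and 1 passed 1 with background subtracted. That subtraction also carried Irf5 past the threshold in BM 2nd over parental cells, at 1.62, a value that rests on intensities near background. Of 140 genes in the pathway lists, 131 with a probe, 8 were higher and 0 lower in BM 2nd over parental, 7 and 1 in BM 1st over parental, and 2 and 0 in BM 2nd over BM 1st cells. With background subtracted these counts were 18 and 2, 14 and 5, and 14 and 5, and at a threshold of 0.6 they were 16 and 2, 13 and 3, and 12 and 3. At 1.5, 0 were lower in BM 1st over parental and 0 higher in BM 2nd over BM 1st cells. In that last comparison 1 gene was higher when probes were averaged and 4 when each array was centred on its own probes. Of 78 recomputed ratios of the other members, 51 moved by less than the median SD between probes of a gene, 27 moved by more, and 4 changed sign; none of the ratios that changed sign had been past the threshold. Of 270 recomputed list medians 53 moved by more than that SD. No paired analysis was possible because each line has 1 array. The number of arrays and the background left in the intensities limit the precision.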

Other observations

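The Irf1 and Irf2 windows share runs of at most 10 bases, and there are 2 of that length. The one that overlaps the end of the GAS match in both genes is GAAATGATGA, which starts at base 167 of the Irf1 window and base 33 of the Irf2 window, counted from the 5′ end, and occurs in 26 of 32851 mouse promoter windows (0.0791%). The other, the G-rich GGGGGTGGGG, occurs in 1051 (3.2%). The run was looked for after the promoters had been seen, and no value measured here bears on its use.

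Among the steady genes read for comparison, none of 9 with a probe was past the threshold in any of the 3 comparisons. In BM 1st over parental cells 8 were compared, since Sdha was not above background on either array. Gapdh had a log2 BM 2nd/parental ratio of 0.53, above that of Irf2, and Actb one of -0.11.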
